A study of Mus musculus with 13 samples.

Results

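Mast cells and basophils are rare granulocytes that store histamine and proteases and carry the high-affinity receptor for IgE. The level of 10 genes of these cells was followed in bone marrow progenitors of mice that express oncogenic Nras, mutant p53, both, or neither, on the C57BL/6J background. The genes were taken from a fixed list by symbol: the surface receptor genes Ms4a2, Fcer1a, and Il1rl1, the granule enzyme genes Cpa3, Gzmb, Mcpt8, Prss34, Tpsb2, and Cma1, and Hdc, which makes histamine. All 10 were found among the 54838 genes of the count table through their Ensembl identifiers and the symbols of GENCODE release M21. Of these, 8 had enough reads to be tested, and Tpsb2 and Cma1 did not.

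RNA-Seq was run on 50000 sorted Lin-cKit+ bone marrow (BM) cells per mouse, a population of blood stem and progenitor cells that has the stem cell factor receptor Kit and lacks the surface markers of mature lineages. The 3 control mice carried Mx1-Cre alone, the 3 p53mut mice carried Mx1-Cre and p53 R172H/+, the 3 NrasG12D mice carried Mx1-Cre and Nras G12D/+ (spelled Nras G21D/+ in their genotype labels, against NrasG12D in their titles), and the 4 NPmut mice carried Mx1-Cre and both mutations. Mice of the first 3 groups received 3 injections of 100 µg polyinosinic-polycytidylic acid (pI-pC) from about 6 weeks of age, which turns on the interferon-inducible Mx1-Cre, and were matched to the NPmut mice in age. NPmut mice were not injected and were moribund, so that their genotype, the absence of pI-pC, and advanced disease cannot be told apart. Every mutation was expressed from its own locus, and Mx1-Cre is active in blood cells and in other tissues that respond to interferon.

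In mice, basophils and mast cells arise from KIT-positive progenitors that keep the transcription factor GATA2, which progenitors of neutrophils and monocytes lose. Their IgE receptor is built from an alpha chain that binds IgE (Fcer1a), a beta chain that amplifies the signal (Ms4a2), and a gamma chain shared with other Fc receptors (Fcer1g). Mature tissue mast cells fill their granules with tryptases such as TPSB2 and chymases such as CMA1, whereas MCPT8 and PRSS34 are proteases of basophils.

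Library totals ranged from 12576174 counts in NPmut mouse 4 to 29124022 in NPmut mouse 2. The 6 marker genes of the sorted cells, Kit, Cd34, Myb, Gata2, Spi1, and Ptprc, were detected in each group. They summed to 2375 to 2706 CPM (read counts relative to the library total, scaled by the TMM method) in control mice, 2532 to 2862 in p53mut mice, 2774 to 3099 in NrasG12D mice, and 2058 to 2320 in NPmut mice, so that every NPmut mouse was below every other mouse, and the part of this in the members' values was not tested. Reads from 1461 olfactory and vomeronasal receptor genes, which blood cells do not use, served as a measure of background, and they differed between the groups, with 96.5 to 189 CPM in control mice, 57.0 to 139 in p53mut mice, 38.3 to 43.8 in NrasG12D mice, and 17.8 to 57.3 in NPmut mice. Scaled to the length of each gene, such reads would make up between 0.0252% and 9.2% of a group's counts of a tested member, with the highest share for Fcer1a in NPmut mice. In bulk samples such as these, fewer cells of a type and less RNA per cell cannot be told apart.

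The promoters of the members are shown first, because GATA factors are known to bind sites such as AGATAA and TGATAA and because most of the members moved together across the mice. RefSeq promoter windows of 300 bases, which end 50 bases after the gene start on GRCm38.p6, were at hand for 9 of the 10 members. AGATAA or TGATAA was found on either strand in 5 of them (Ms4a2, Fcer1a, Il1rl1, Cpa3, and Prss34) and was not found in the other 4 (Gzmb, Mcpt8, Cma1, and Hdc). The same letters occur in 18.6% of all 32851 promoter windows of the table, counted per window rather than per gene. The start used here is that of RefSeq, which differs for some members from the GENCODE gene bounds given below. Part of the window of Mcpt8 and all of that of Hdc (chr2:126618679-126618928 before the start) lie within those bounds. The 250 bases before the RefSeq start are printed 5′ to 3′ for the 5 members with a match and for Mcpt8, the member that ran against the rest. Matches on either strand are in capitals.
Ms4a2, chr19:11623720-11623969, minus strand: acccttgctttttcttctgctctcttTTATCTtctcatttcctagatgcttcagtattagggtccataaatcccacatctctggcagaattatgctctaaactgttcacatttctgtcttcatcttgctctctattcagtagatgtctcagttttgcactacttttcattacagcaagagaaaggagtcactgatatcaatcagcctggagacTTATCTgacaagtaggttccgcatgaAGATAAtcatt
Fcer1a, chr1:173227230-173227479, minus strand: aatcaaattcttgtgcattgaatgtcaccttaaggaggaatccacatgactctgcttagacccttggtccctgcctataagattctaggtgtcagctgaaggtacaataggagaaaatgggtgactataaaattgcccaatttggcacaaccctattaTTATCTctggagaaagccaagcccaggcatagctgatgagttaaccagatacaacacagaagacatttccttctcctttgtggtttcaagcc
Il1rl1, chr1:40429320-40429569, plus strand: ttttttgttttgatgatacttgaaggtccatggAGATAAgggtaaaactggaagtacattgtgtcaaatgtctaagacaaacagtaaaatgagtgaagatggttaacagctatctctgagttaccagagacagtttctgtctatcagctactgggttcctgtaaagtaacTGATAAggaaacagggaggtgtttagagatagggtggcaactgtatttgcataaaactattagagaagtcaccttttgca
Cpa3, chr3:20242182-20242431, minus strand: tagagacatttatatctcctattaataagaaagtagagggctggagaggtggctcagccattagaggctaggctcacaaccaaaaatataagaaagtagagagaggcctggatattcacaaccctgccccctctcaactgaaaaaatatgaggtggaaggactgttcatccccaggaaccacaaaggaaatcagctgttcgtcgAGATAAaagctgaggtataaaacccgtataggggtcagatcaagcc
Prss34, chr17:25298144-25298393, plus strand: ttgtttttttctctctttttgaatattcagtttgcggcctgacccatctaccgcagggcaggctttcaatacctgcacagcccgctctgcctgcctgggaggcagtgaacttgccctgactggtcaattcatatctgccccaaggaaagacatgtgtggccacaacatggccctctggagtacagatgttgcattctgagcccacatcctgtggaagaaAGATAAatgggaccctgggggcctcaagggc
Mcpt8, chr14:56085198-56085447, minus strand: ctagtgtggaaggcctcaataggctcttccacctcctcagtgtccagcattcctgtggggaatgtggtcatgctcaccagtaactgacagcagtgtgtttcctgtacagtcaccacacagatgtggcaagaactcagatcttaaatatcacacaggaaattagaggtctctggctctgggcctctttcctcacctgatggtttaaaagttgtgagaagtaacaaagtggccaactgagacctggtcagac
Ms4a2 has 3 matches, which begin 224, 37, and 11 bases before the start, and 0.502% of all windows hold 3 or more. The match of Prss34 begins 31 bases, that of Cpa3 46 bases, and that of Fcer1a 92 bases before the start. The window of Il1rl1 shown here, that of its more distal start, has matches 217 and 80 bases before it, and its proximal start has another match 103 bases before it. Gzmb and Hdc, also without a match, had lower means in NPmut than in control mice, with overlap. These were 0.702 against 2.46 CPM for Gzmb and 48.7 against 60.8 CPM for Hdc. A match describes the letters of these windows and does not show that a factor binds there.

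Ms4a2, the beta chain of the IgE receptor (chr19:11615523-11623719, minus strand, 2813 exonic bases), differed between NrasG12D, control, and NPmut mice without overlap. It stood at 18.3, 14.5, and 14.8 CPM in control mice 1 to 3 and at 18.1, 12.8, and 13.9 CPM in p53mut mice. It stood at 23.9, 33.3, and 20.6 CPM in NrasG12D mice and at 7.28, 2.47, 11.2, and 1.87 CPM in NPmut mice 1 to 4. Every NrasG12D mouse was above every control mouse, every NPmut mouse was below every mouse of the other groups, and the control and p53mut mice overlapped. The group means were 25.9 ± 6.59 CPM in NrasG12D mice (SD, n = 3), 15.9 ± 2.14 in control mice (SD, n = 3), and 5.69 ± 4.37 in NPmut mice (SD, n = 4). Within NPmut mice the highest value was 5.98 times the lowest, compared with 1.27 times in control mice.

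Fcer1a, the alpha chain (chr1:173221284-173227214, minus strand, 998 exonic bases), was sparse. It had 21, 20, and 13 counts in control mice, 17, 21, and 18 in p53mut mice, and 11, 24, and 11 in NrasG12D mice. It had 4, 0, 2, and 0 counts in NPmut mice. The 9 mice of the first 3 groups overlapped throughout, from 0.637 to 1.57 CPM, and all 4 NPmut mice lay below them, at 0.202 CPM or less. The 2 NPmut libraries without a read allow at most 3 counts each, which are 0.116 CPM in mouse 2 and 0.255 CPM in mouse 4 for counting error alone.

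Il1rl1, the receptor for the alarmin IL-33 (chr1:40429570-40465415, plus strand, 6894 exonic bases), was among the better covered members. It stood at 32.8, 33.7, and 38.1 CPM in control mice and at 45.9, 33.5, and 60.4 CPM in p53mut mice. It stood at 44.0, 58.6, and 46.0 CPM in NrasG12D mice and at 9.35, 3.82, 21.4, and 13.7 CPM in NPmut mice. NrasG12D mice lay above control mice without overlap but not above p53mut mice, and NPmut mice lay below every other mouse.

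Cpa3, the carboxypeptidase of mast cell granules (chr3:20215620-20242181, minus strand), had the highest level per kilobase of the 10 genes in every group, at 17.1 RPKM (reads relative to the library total and to exonic length) in control, 20.5 in p53mut, 30.5 in NrasG12D, and 11.9 in NPmut mice. It stood at 38.7, 16.6, and 19.9 CPM in control mice and at 47.9, 20.5, and 23.6 CPM in p53mut mice. It stood at 44.3, 53.9, and 39.8 CPM in NrasG12D mice and at 14.7, 9.18, 36.1, and 14.3 CPM in NPmut mice. The NrasG12D mice were again above the control mice, but 1 control and 1 p53mut mouse, each numbered 1, came near or into their range, and NPmut mouse 3 was above 2 of the 3 control mice. Mir7007 lies inside Cpa3 on the same strand and could share reads with it.

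Gzmb, granzyme B, a serine protease of cytotoxic lymphocytes that basophils and mast cells also use (chr14:56258838-56262260, minus strand), had between 2 and 82 counts per library. Its mean was 2.46 ± 1.499 CPM in control (SD, n = 3), 2.72 ± 1.62 in p53mut (SD, n = 3), 2.65 ± 0.461 in NrasG12D (SD, n = 3), and 0.702 ± 0.681 in NPmut mice (SD, n = 4). NPmut mice ranged from 0.170 to 1.66 CPM and overlapped with control mice, of which the lowest stood at 1.42 CPM. Mouse 3 was the highest of the control and of the p53mut mice, at 4.18 and 4.46 CPM. Mice 1 and 2 ran in opposite order, at 1.78 and 1.42 CPM in control and 1.255 and 2.43 CPM in p53mut mice.

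The basophil proteases parted. Mcpt8 (chr14:56082166-56085273, minus strand, with Mir6949 inside it on the same strand) stood at 5.63, 4.76, and 4.94 CPM in control mice and at 6.37, 5.04, and 6.15 CPM in NrasG12D mice. It stood at 8.79, 7.06, 12.01, and 7.13 CPM in NPmut mice, each of which was above all mice of the other groups, and p53mut mice ranged from 4.28 to 5.90 CPM. Per kilobase it was the fourth of the 10 genes in control mice and the second in NPmut mice, at 5.31 and 8.44 RPKM. Prss34 (chr17:25298394-25300165, plus strand) stood at 0.517, 1.298, and 1.07 CPM in control mice, at 2.61, 2.03, and 3.69 CPM in NrasG12D mice, and at 1.52, 0.501, 1.02, and 0.255 CPM in NPmut mice. NrasG12D mice lay above control and NPmut mice without overlap, and control and NPmut mice overlapped. These values rest on 9 to 57 counts in control and NrasG12D libraries and on 3 to 30 in NPmut libraries.

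Hdc, the histidine decarboxylase that makes histamine (chr2:126593667-126619299, minus strand), was also among the better covered members. Its mean was 60.8 ± 5.04 CPM in control (SD, n = 3), 65.9 ± 18.7 in p53mut (SD, n = 3), 66.8 ± 3.04 in NrasG12D (SD, n = 3), and 48.7 ± 8.98 in NPmut mice (SD, n = 4). The NPmut mice, at 40.8 to 59.6 CPM, were below the NrasG12D mice and overlapped with the control mice.

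The proteases of mature tissue mast cells were at or near 0 in each group. Tpsb2 (chr17:25366305-25369098) had 2 counts in each of 2 control mice, 4 counts in NPmut mouse 3, and 0 in the other 10 mice. Cma1 (chr14:55941451-55944675) had at most 9 counts in a library, and mouse 2 of control, p53mut, and NrasG12D mice had 0. No difference in either gene was detectable at this depth.

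**Figure D1:**
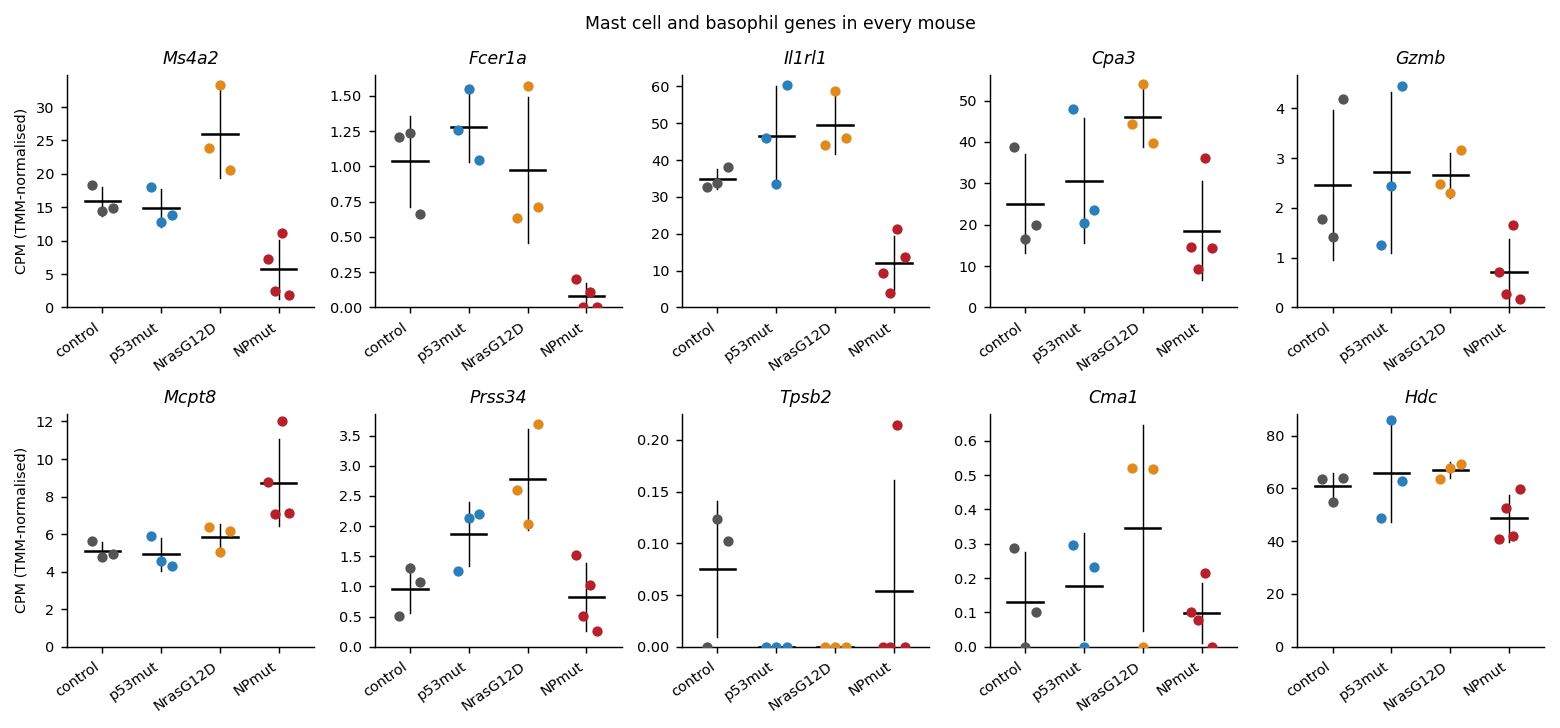
CPM of each of the 10 genes in every mouse, on linear axes from 0 that differ between panels, where points are mice, horizontal lines are group means, and vertical lines are the SD. NPmut mice (4) lie below the control mice (3) without overlap for Ms4a2, Fcer1a, and Il1rl1 and above them for Mcpt8.

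To examine whether oncogenic Nras alone changed these genes, NrasG12D mice were compared with control mice in a model fitted to all genes, in which a gene was called when its adjusted p-value was under 0.05 and its change was at least 2-fold. None of the 8 tested members was called (edgeR quasi-likelihood test with Benjamini-Hochberg adjustment), and only 1 of all 17795 genes was, that is 0.00562% called higher and 0% lower. Of the members, 7 had a positive value and 1 a negative one, with a median log2 fold change of 0.351 compared with -0.0119 over all genes. Cpa3, Il1rl1, Ms4a2, and Prss34 were above the control mice without overlap, a pattern that 10.9% of all genes had upward and 10.2% downward. The log2 fold change was 1.52 ± 0.528 (SE) for Prss34, the largest of the 8, with an adjusted p of 0.369. It was 0.88 ± 0.484 for Cpa3, 0.71 ± 0.470 for Ms4a2, and 0.51 ± 0.423 for Il1rl1, with adjusted p-values between 0.648 and 0.795. Prss34 was also the single member with an unadjusted p under 0.05 in this comparison, as were 898 of all genes on the higher side. DESeq2, run on the same counts, called 0 members.

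To examine the progenitors of moribund mice with both mutations, NPmut mice were compared with the same control mice. Fcer1a and Il1rl1 fell, and the other 6 tested members were not called. Over all genes, 3.69% were called lower and 2.32% higher in this comparison, against 2 and 0 of the 8 members. Fcer1a was 12-fold lower by the fit, with -3.58 ± 0.728 on the log2 scale (SE) at an adjusted p of 0.00634, which rests on 6 counts in the 4 NPmut libraries. The value was -4.59 without NPmut mouse 1, which held 4 of those counts, and -3.07 without NPmut mouse 2, the ends of its range with 1 mouse left out. Il1rl1 was 2.91-fold lower, with -1.54 ± 0.403 on the log2 scale (SE) at an adjusted p of 0.0292. Ms4a2, at -1.47 ± 0.449 (adjusted p = 0.0544), and Gzmb, at -1.78 ± 0.618 (adjusted p = 0.0794), missed the threshold with changes of like size. Mcpt8 was 1.71-fold higher, with a value of 0.78 ± 0.228 on the log2 scale and an adjusted p of 0.041, which passed the threshold for p but not that for fold. Over all alternatives its value stayed positive (0.583 to 1.135), and its adjusted p ranged from 0.0188 to 0.14. The adjusted p was above 0.05 without control mouse 1 (0.0767), 2 (0.135), or 3 (0.14) and without NPmut mouse 1 (0.0796) or 3 (0.0991). It was also above 0.05 with background reads as a covariate (0.0917), with library totals (0.0934), and with no filter on low counts (0.0517). The same held with at least 10 counts in every library (0.0506) and in a fit of the compared groups alone (0.108). Cpa3, Hdc, and Prss34 had values of -0.43 ± 0.453, -0.32 ± 0.170, and -0.19 ± 0.512. Ms4a2, Fcer1a, and Il1rl1 lay below the control mice without overlap, as did 11.5% of all genes, and Mcpt8 lay above them, as did 10.4%.

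Both calls were lost in a fit with the background reads described above as a covariate. Those reads did not overlap between control mice (96.5 to 189 CPM) and NPmut mice (17.8 to 57.3 CPM). Over all genes, the number called lower went from 656 to 252 in that fit, and the number called higher from 413 to 356. With the log2 CPM of those reads (here relative to the library total, without TMM scaling) as a covariate, the values were much the same, -3.53 for Fcer1a and -1.65 for Il1rl1, but the adjusted p-values were 0.131 and 0.212 and neither gene was called. The adjusted p-values ranged from 5.4e-05 to 0.131 for Fcer1a and from 0.003 to 0.212 for Il1rl1 over all alternatives, and the part of the background reads in the result was not tested. The call of Il1rl1 was also lost without any one of the control mice (adjusted p = 0.072, 0.0733, and 0.103 without mice 1, 2, and 3) and without NPmut mouse 1 (0.0752) or 4 (0.0504), and with no filter on low counts (0.103). Without NPmut mouse 3, which lay nearest to the control mice for Ms4a2, Il1rl1, and Gzmb, 4 members were called lower: Fcer1a, Il1rl1, Ms4a2 (log2 fold change -2.01, adjusted p = 0.00488), and Gzmb (-2.62, adjusted p = 0.0127).

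**Figure D2:**
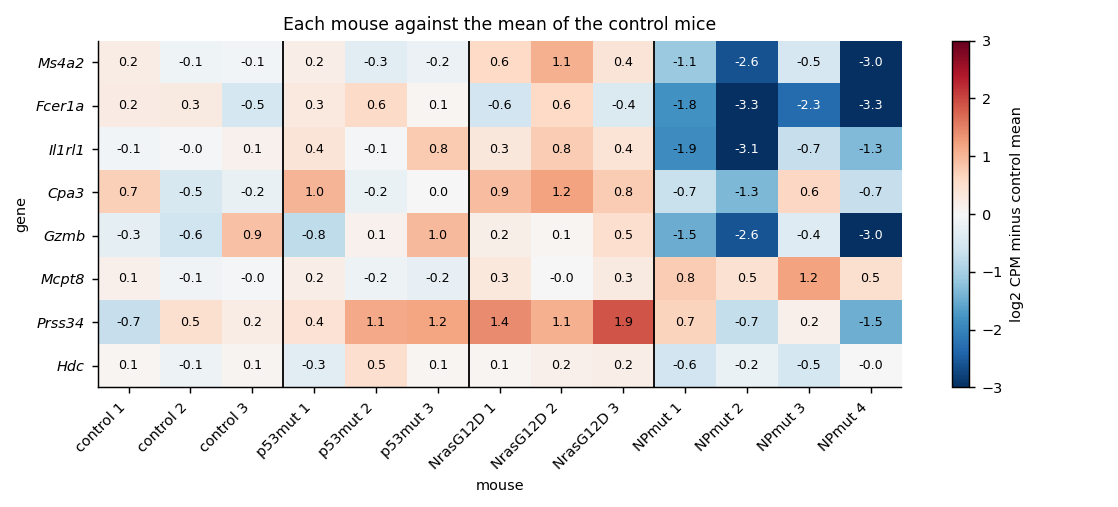
Difference in log2 CPM (with a prior count of 2) between each of the 13 mice (columns) and the mean of the control mice for the 8 tested members (rows), where red is higher and blue lower and each cell prints its value. NPmut mice 2 and 4 hold the lowest values of Ms4a2, Fcer1a, and Gzmb, NPmut mouse 3 is the nearest to the control mice for Ms4a2, Il1rl1, and Gzmb, and Mcpt8 is positive in all 4 NPmut mice.

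NrasG12D and NPmut mice share the oncogenic Nras allele, and the comparison of the 2 groups has no control mouse in it. Il1rl1, Fcer1a, Ms4a2, and Prss34 were called lower in NPmut mice, compared with 2.6% of all genes, and no member was called higher, compared with 1.81%. Il1rl1 was 4.14-fold lower, at -2.05 ± 0.405 on the log2 scale (SE), with an adjusted p of 0.00911, and was called under each of the 15 alternatives. Fcer1a was 11.3-fold lower (-3.49 ± 0.734; adjusted p = 0.00903), Ms4a2 was 4.51-fold lower (-2.17 ± 0.450; adjusted p = 0.0106), and Prss34 was 3.29-fold lower (-1.72 ± 0.486; adjusted p = 0.0393). The value of Fcer1a was -4.49 without NPmut mouse 1 and -2.97 without NrasG12D mouse 2, the ends of its range with 1 mouse left out, and Ms4a2 lost its call with no filter on low counts (adjusted p = 0.0518). In a fit of the compared groups alone, Il1rl1 (adjusted p = 0.0375) was the only member called, so that Fcer1a, Ms4a2, and Prss34 lost their calls. Without NrasG12D mouse 2, which had the highest Ms4a2, Fcer1a, and Il1rl1 of its group, Il1rl1 alone was called, and the adjusted p-values were 0.0577 for Fcer1a, 0.0543 for Ms4a2, and 0.0689 for Prss34. The call of Prss34 was also lost without NrasG12D mouse 1 (0.0973) or 3 (0.159) and without NPmut mouse 2 (0.0723) or 4 (0.0581). Without NPmut mouse 3, 6 members were called, with Cpa3 (log2 fold change -1.86, adjusted p = 0.00647) and Gzmb (-2.72, adjusted p = 0.0112) beside those 4.

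In all, 7 of the 8 tested members lay in NPmut mice below every NrasG12D mouse, with Mcpt8 as the exception above them, whereas 11.2% of all genes lay below and 9.34% above. The median log2 fold change of the members was -1.8, compared with 0.0373 over all genes. Cpa3, at -1.31 ± 0.450 (adjusted p = 0.0957), Gzmb, at -1.88 ± 0.620 (adjusted p = 0.0739), Hdc, at -0.46 ± 0.170 (adjusted p = 0.111), and Mcpt8, at 0.58 ± 0.227 (adjusted p = 0.13), were not called.

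**Figure D3:**
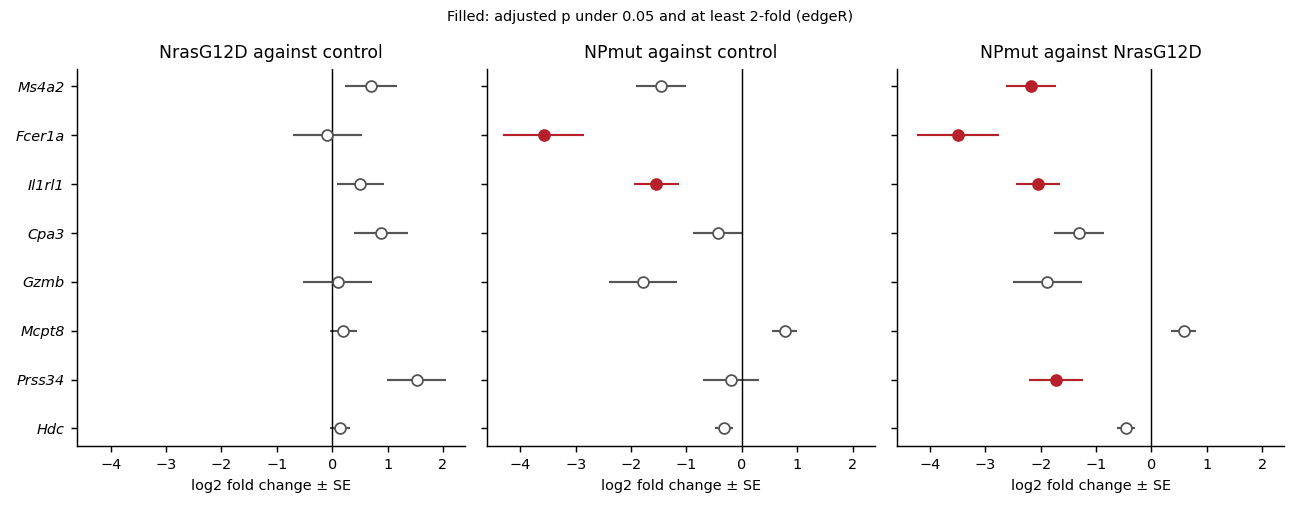
Log2 fold change and its SE for the 8 tested members in NrasG12D against control mice, NPmut against control mice, and NPmut against NrasG12D mice, where filled red points passed both cutoffs. No point is filled in the first panel, 2 are in the second, and 4 are in the third.

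Set side by side, 6 of the 8 tested members had a positive value in NrasG12D mice and a negative one in NPmut mice against the control mice that the comparisons share: Cpa3, Gzmb, Hdc, Il1rl1, Ms4a2, and Prss34. Of these, Il1rl1 and Ms4a2 were separated from the control mice without overlap on either side. Of all genes, 10.9% lay above the control mice in NrasG12D mice and 11.5% below them in NPmut mice. The shares of all genes with both, or with this pair of signs, were not counted, so whether these counts are unusual is not known. Il1rl1 had values of 0.51 and -1.54, and Ms4a2 had values of 0.71 and -1.47. The values were 0.88 and -0.43 for Cpa3, 1.52 and -0.19 for Prss34, 0.10 and -1.78 for Gzmb, and -0.09 and -3.58 for Fcer1a, and with 1 mouse left out the signs of Cpa3 and Prss34 in NPmut mice and of Gzmb and Fcer1a in NrasG12D mice turned. Mcpt8 was positive in each, at 0.20 and 0.78. The positive values in NrasG12D mice passed no test, so that the calls cover the difference between the mutants and the fall of Fcer1a and Il1rl1 in NPmut mice.

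The p53mut mice overlapped with the control mice for all 10 genes. In this comparison 0 of the 8 tested members were called (0 with DESeq2 also), as were 0% of all genes in each direction, and no member had an unadjusted p under 0.05. The log2 fold changes ran from -0.09 ± 0.473 (SE) for Ms4a2 to 0.96 ± 0.534 for Prss34, with adjusted p-values of 1.0.

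The departure of NPmut mice from the sum of both single mutations was tested as an interaction on the log2 scale. It was negative for 7 of the 8 members and positive for Mcpt8, and no member was called, compared with 0.938% of all genes called lower and 0.405% called higher. The 7 negative values had unadjusted p-values under 0.05, as did 8.52% of all genes on the lower side, and ranged from -3.80 ± 0.967 (SE) for Fcer1a to -0.58 ± 0.249 for Hdc. The lowest adjusted p-values were 0.057 for Il1rl1 (-2.47 ± 0.587), 0.0599 for Fcer1a, and 0.074 for Prss34 (-2.67 ± 0.723). DESeq2 called 3 members, Il1rl1, Fcer1a, and Prss34, with adjusted p-values of 0.0105, 0.00595, and 0.0131. Over all alternatives these p-values ranged from 0.00677 to 0.155 for Il1rl1, from 0.00595 to 0.178 for Fcer1a, and from 0.00784 to 0.184 for Prss34. Without NPmut mouse 3, Il1rl1 (0.00677), Ms4a2 (0.0179), and Cpa3 (0.0348) were called. Without p53mut mouse 2 (0.0473) or NPmut mouse 2 (0.0144) Il1rl1 alone was called, and without NPmut mouse 1 Fcer1a alone was (0.047).

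The makeup of the summed member RNA differed between the groups. The 10 genes together came to 128.6 to 163 CPM in control mice, 163 to 173 in p53mut mice, 188 to 225 in NrasG12D mice, and 75.8 to 126 in NPmut mice, so that the NPmut mice were below and the NrasG12D mice above every other mouse. Mcpt8 made up 3.35% to 3.70% of this sum in control mice and 7.34% to 10.5% in NPmut mice. Hdc made up 39.0% to 43.2% in control mice and 33.3% to 69.2% in NPmut mice, and Ms4a2 made up 10% to 11.3% and 1.92% to 8.87%.

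The gamma chain and the effectors of the IgE receptor were followed beside its alpha and beta chains. Fcer1g, the gamma chain, stood at 15.8 to 24.0 CPM in control mice and at 53.9 to 116.9 CPM in NPmut mice and was called higher, at 1.81 ± 0.290 on the log2 scale (SE) and an adjusted p of 0.00181. Of 22 signaling genes of this receptor that were listed and tested, 2 were called higher in NPmut mice (Fcer1g and the adaptor gene Lat2) and 0 lower, compared with 2.32% and 3.69% of all genes. Against NrasG12D mice, Fcer1g was called higher, and the adaptor gene Lat and the kinase gene Fyn were called lower, at log2 fold changes of -1.59 (adjusted p = 0.0174) and -1.06 (adjusted p = 0.00756). Lat stood at 9.16 CPM on average in NrasG12D mice and at 3.03 CPM in NPmut mice. Syk, the kinase that the receptor recruits, was not called, at a log2 fold change of -0.12 in NPmut against control mice.

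Genes for storing and making mediators split likewise. Slc18a2, which loads histamine and other amines into granules, fell in NPmut mice by 2.8 ± 0.515 on the log2 scale (SE; adjusted p = 0.00545), from 12.98 to 29.8 CPM in control mice to 1.02 to 7.03 CPM. It was also called lower than in NrasG12D mice (-3.02, adjusted p = 0.00478) and in the interaction (-3.41, adjusted p = 0.0417). Alox5, the first enzyme of leukotriene synthesis, fell by 1.14 (adjusted p = 0.0485). Tnf, Osm, and Ccl3, cytokine genes that monocytes also express, were called higher, at log2 fold changes of 2.41, 1.86, and 3.06. Of the 20 listed genes, 16 were tested, and 3 were called higher and 2 lower in NPmut against control mice and likewise against NrasG12D mice. Of all genes, 2.32% were called higher and 3.69% lower against control mice, and 1.81% and 2.6% against NrasG12D mice. Tph1, Il4, Il13, and Il6 did not have enough reads to be tested.

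Among 23 listed cytokine receptor and surface genes, 17 were tested. Of these, 3 were called higher and 2 lower in NPmut against control mice, compared with 2.32% and 3.69% of all genes. Il3ra and Csf2rb, which encode chains of the IL-3 receptor, rose in NPmut mice by 1.04 ± 0.178 and 1.02 ± 0.150 on the log2 scale (SE; adjusted p = 0.00226 and 9e-04). Itgb7, an integrin chain of mast cell progenitors, rose by 1.94 (adjusted p = 0.000105), from 8.65 to 11.1 CPM in control mice to 26.4 to 45.9 CPM, and NrasG12D mice, at 20.0 to 32.5 CPM, were also above the control mice, with a log2 fold change of 1.41 and an adjusted p of 0.0505. The integrin genes Itga2 and Itga2b fell by 1.36 and 1.95 (adjusted p = 0.0139 and 0.0243). Kit, on which the cells were sorted, stood at -0.54 on the log2 scale against control mice (adjusted p = 0.0322), under the 2-fold cutoff. Of the 15 other mast cell and basophil protease genes listed, Ctsg alone had enough reads to be tested, and it was not called in NPmut against control mice (log2 fold change 0.48, adjusted p = 0.168). Ctsg lies with Mcpt8, Gzmb, and Cma1 on chromosome 14.

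Of 15 transcription factor genes, all tested, 4 fell in NPmut mice, against control and against NrasG12D mice alike: Gata2 (-1.64, adjusted p = 0.0142 against control), its relative Gata1 (-1.80, adjusted p = 0.0194), their cofactor Zfpm1 (-1.67, adjusted p = 0.0184), and Tal1 (-1.26, adjusted p = 0.00511). Irf8, Nfil3, and Cebpb rose, at 1.85, 1.84, and 1.16 (adjusted p = 0.00044, 0.000653, and 0.0366). Mitf and Cebpa were not called, at 0.51 and 0.41 (adjusted p = 0.17 and 0.115). Over all 95 genes of these lists, 71 were tested, of which 11 were called higher and 8 lower in NPmut against control mice, 6 higher and 10 lower in NPmut against NrasG12D mice, 2 higher and 3 lower in the interaction, and 0 in NrasG12D or p53mut mice. The shares of all genes called higher and lower were 2.32% and 3.69% against control mice and 1.81% and 2.6% against NrasG12D mice. In the interaction they were 0.405% and 0.938%.

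**Figure D4:**
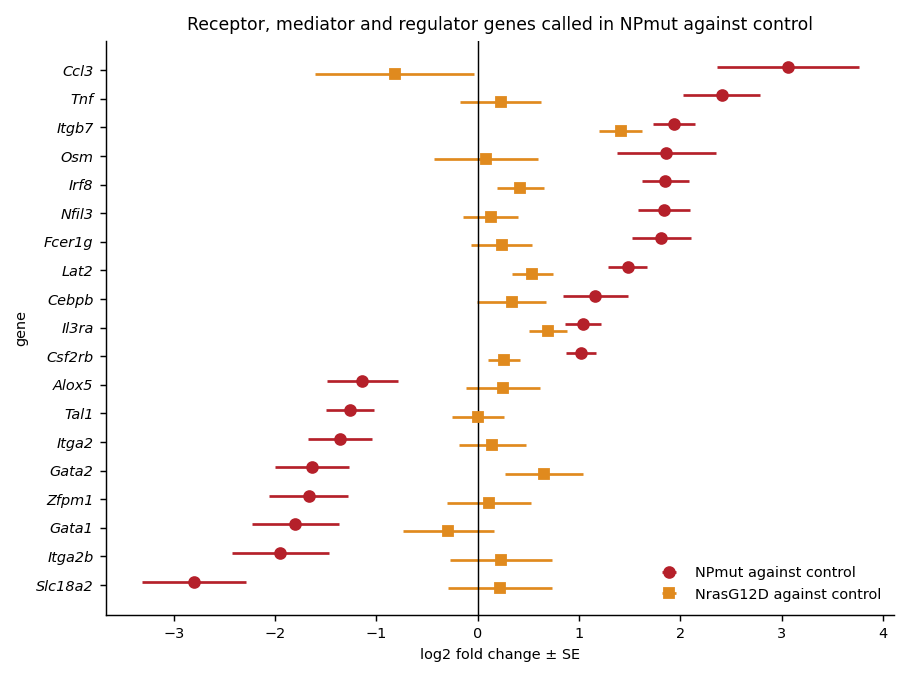
Log2 fold change and its SE in NPmut against control mice (circles) and in NrasG12D against control mice (squares) for the 19 listed receptor, mediator, and regulator genes that were called in NPmut mice. The 11 upper genes rose and the 8 lower genes fell in NPmut mice, and none of the 19 was called in NrasG12D mice.

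The gene whose pattern over the 13 mice was most like that of the members was Gata2, at a Pearson r of 0.968 with the mean standardized log2 CPM of the 8 tested members, among 12972 other genes whose log2 CPM averaged 1 or more. Gata2 stood at 153.7, 123.4, and 170.6 CPM in control mice, at 192.3, 124.9, and 217.1 in p53mut mice, at 244.0, 240.6, and 219.1 in NrasG12D mice, and at 50.5, 21.8, 86.7, and 31.9 in NPmut mice. As with Ms4a2, the NrasG12D mice were all above and the NPmut mice all below the control mice, and NPmut mouse 3 was the highest of its group. In NrasG12D against control mice its log2 fold change was 0.65, with an adjusted p of 0.679. The next were Gprc5b, Tbc1d4, 1700020I14Rik, Knop1, Zfp397, Tgtp2, Slc45a3, Gm17590, and Ablim1, with r from 0.966 down to 0.95, and 122 genes had an r above 0.9. These points share libraries and genotypes, and over the 9 mice without NPmut the r of Gata2 was 0.801, which ranked it at 523. Of the members themselves, Ms4a2 was the closest to their mean (r = 0.955), followed by Il1rl1 (0.913), Gzmb (0.896), Fcer1a (0.845), Cpa3 (0.824), and Prss34 (0.791), whereas Hdc (0.476) and Mcpt8 (-0.428) stood apart. Each member is part of that mean, which raises its r, so that these values are not comparable with those of the other genes. The closest pair was Ms4a2 and Fcer1a (r = 0.863), and the most opposed was Mcpt8 and Hdc (r = -0.746).

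**Figure D5:**
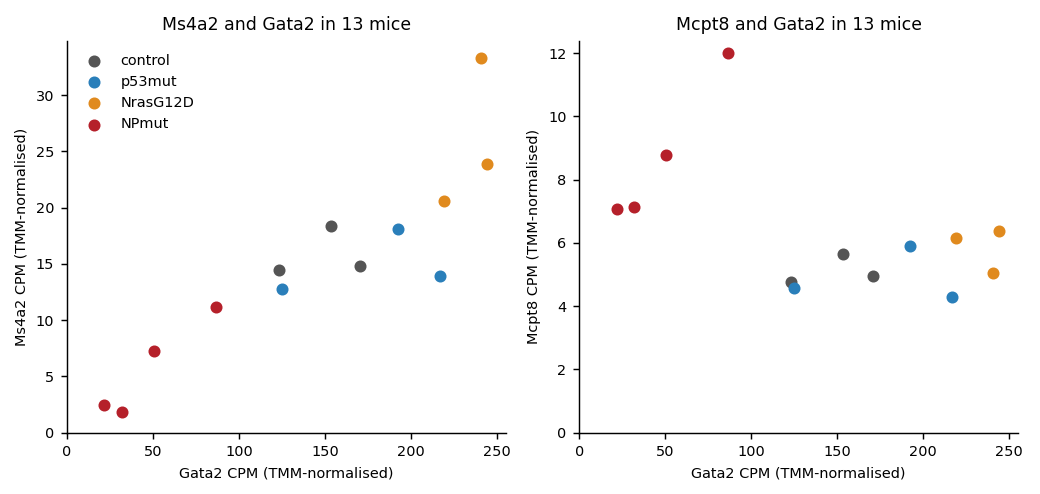
CPM of Ms4a2 (left) and Mcpt8 (right) against CPM of Gata2 in the 13 mice, on linear axes from 0, colored by genotype. NPmut mice have the lowest Gata2 (21.8 to 86.7 CPM), the lowest Ms4a2, and the highest Mcpt8, and NrasG12D mice have the highest Gata2 (219 to 244 CPM) and the highest Ms4a2.

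Summed markers of megakaryocytes, erythroid cells, and monocytes and dendritic cells lay in NPmut mice outside the range of the other mice. The sums of the other cell types overlapped. The part of any of these cells in the members' values was not tested. Of all genes, 2.32% were called higher and 3.69% lower in NPmut against control mice. The 8 megakaryocyte markers summed to 137 to 281 CPM in the other 9 mice and 21.1 to 74.3 in NPmut mice, where 6 of 6 tested were called lower than in control mice and Gp1bb was at 0. The 8 erythroid markers summed to 773 to 1335 CPM and 325 to 721, with Car2 and Klf1 called lower among 8 tested. The 8 monocyte and dendritic cell markers summed to 329 to 558 CPM and 899 to 1455, with 7 of 8 called higher. The 9 neutrophil and granulocyte-macrophage progenitor markers summed to 8856 to 17660 CPM and 13040 to 22140, and 9 eosinophil markers to 23.6 to 46.7 and 31.5 to 95.8, with none called against control mice. The 10 markers of NK and cytotoxic T cells, which also express Gzmb, summed to 37.8 to 68.7 CPM and 40.5 to 61.9, and Klrd1 alone was called, as higher. The 7 markers of group 2 innate lymphoid and Th2 cells, which also express Il1rl1, summed to 8.28 to 16.1 CPM and 7.80 to 14.5, with Gata3 called lower and with Areg and Il5 at 0 in control and p53mut mice.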

How the data were processed

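The authors sorted Lin-cKit+ BM cells, extracted total RNA with the RNeasy Micro Kit, prepared libraries with the SMARTer Stranded Total RNA kit (Pico Input, v1), and deposited raw counts per gene as whole numbers in 1 table with a column for each of the 13 mice (0 columns without a sample). The submitters' processing notes name STAR 2.6.1d, R 3.6.1, DESeq2 1.26.0, and GRCm38.p6, and the counting program and its strand setting are not given in the sources used here. Replicates are separate mice. Of 54838 identifiers, 54809 matched GENCODE M21, which gave symbols, coordinates, and exonic lengths. Library totals ranged from 12576174 to 29124022 counts, and floors of 3 counts cover counting error alone.

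The members and lists were chosen with earlier results of these data known. The tests were run with edgeR 4.0.16 under R 4.3.3, as 1 robust quasi-likelihood fit of all 13 libraries with a mean per group, TMM normalization, and filterByExpr, which kept 17795 of the 44944 genes with a count. P-values were adjusted over all genes tested (Benjamini-Hochberg), and genes with an adjusted p under 0.05 and a change of at least 2-fold were called, the cutoffs of the study. SEs were derived from the fold change and its F statistic. In simulated counts for NPmut against control mice, edgeR recovered 84.5% of 200 genes changed by 2 on the log2 scale among 17580 tested, with 3 false calls, and DESeq2 recovered 93%, with 22 false calls. The changed genes were drawn from those averaging above 1 CPM, and each gene had the same spread in all groups. These rates therefore do not cover sparser genes or a larger spread in NPmut mice. Named genes are all members, genes of the pathway lists that were called in any comparison plus Gata1, Gata2, Kit, Fcer1g, Il3ra, Csf2rb, Mitf, and Cebpa, the 10 genes of most similar pattern, and markers at 0 or called, while Syk, Tph1, Il4, Il13, and Il6 were named after their values were seen. Another item of the lists is not reported here. Alternatives were RLE factors, library totals, DESeq2 1.42.0, no filter, at least 10 counts in every library, a fit of the compared groups alone, the replicate number as a block, background reads as a covariate, and each mouse left out in turn. Same-numbered control and p53mut mice deviated together from their group means (r = 0.152 to 0.166 over genes, in 3 of 3 pairs), a likeness seen in the data and stated by no label. In every other combination of groups not all r were positive. Single pairs there reached higher values, 0.294 for NrasG12D and NPmut mice 2 and 0.257 for control and NPmut mice 2. Promoters are those of RefSeq for GRCm38.p6.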

Additional observations from a re-analysis of the deposited data

How the results depend on the processing

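No member changed direction or call with RLE factors or library totals, although library totals moved the median log2 fold change of all genes in NPmut against control mice from 0.0142 to -0.106. In NrasG12D or p53mut against control mice, 0 members were called under every alternative run. Members called lower in NPmut against control mice (2) numbered 0 with the background covariate, 1 in a fit of the compared groups alone, 4 with DESeq2 (Ms4a2 and Gzmb entered), and 1 to 4 with 1 mouse left out. The number stayed at 2 with changed members with no filter (Gzmb for Il1rl1) and with at least 10 counts in every library (Ms4a2 for Fcer1a, which was not tested there). Those called lower against NrasG12D mice (4) numbered 2 with at least 10 counts in every library, since Fcer1a and Prss34 were not tested there, 1 in a fit of the compared groups alone, 4 with no filter (Gzmb for Ms4a2), 5 with DESeq2 (Gzmb entered), and 1 to 6 with 1 mouse left out. Those of the interaction (0) numbered 2 with no filter, 1 with at least 10 counts in every library, 3 with DESeq2, and 0 to 3 with 1 mouse left out. The causes of the other moves were not tested.

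With the replicate number as a block, 3 members were called lower in NPmut against control mice (Il1rl1, Fcer1a, and Gzmb) and 4 against NrasG12D mice (Gzmb entered and Prss34 left, at an adjusted p of 0.0591), and Prss34 turned to 0.0712 against control mice. Number 4 occurs in NPmut mice alone, so that the block gave NPmut mouse 4 its own term and took it out of the NPmut mean. These moves therefore cannot be ascribed to a pairing. Control and p53mut libraries correlated best with their own number in 6 of 6 cases, p53mut and NPmut libraries in 4 of 6, NrasG12D and NPmut libraries in 4 of 6, control and NrasG12D libraries in 2 of 6, control and NPmut libraries in 2 of 6, and p53mut and NrasG12D libraries in 0 of 6, a hint from the data alone. The block changed no call of p53mut against control mice.

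Values that turned sign were all uncalled. With the background covariate Cpa3 came to 0.19 in NPmut against control mice, and Mcpt8 and Ms4a2 to 0.0355 and 0.0511 in p53mut against control mice. With 1 mouse left out, Cpa3 ranged from -0.99 to 0.0414 and Prss34 from -0.66 to 0.0714 in NPmut against control mice, and Fcer1a from -0.61 to 0.15 and Gzmb from -0.18 to 0.72 in NrasG12D against control mice. In p53mut against control mice, Hdc ranged from -0.12 to 0.29, Cpa3 from -0.18 to 0.76, Mcpt8 from -0.21 to 0.0414, Gzmb from -0.42 to 0.77, and Ms4a2 from -0.25 to 0.0356. Depth limits Fcer1a, Prss34, and Gzmb, each at under 100 counts per library, and Tpsb2 and Cma1, which could not be tested.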
